A study of Mus musculus with 6 samples.

Results

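Metallothioneins are small, cysteine-rich proteins that bind zinc and copper through their thiol groups. They were followed here through every probe set of the array whose single gene symbol was Mt1, Mt2 or Mt3, which gave 3 genes of 18193 named on the array and 4 probe sets, 2 for Mt1 and 1 each for Mt2 and Mt3. All 4 were bright enough to be tested. Mt4, the remaining member of the mouse family, was not among the genes chosen, and its only probe set was too dim to test, at 53 and 3.99 (N-inv), 92.6 and 7.62 (SC) and 13.2 and 61.1 (PBS).

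RNA came from spinal cord at the first lumbar level (L1) of SCID mice, which lack functional T and B cells. All were labelled male, were housed from 9 weeks of age and were 15 weeks old when the cord was taken, which the design gives as the 6-week point of the models. N-inv mice had received Capan-1, a cell line from a human pancreatic cancer, in the left sciatic nerve. SC mice were a subcutaneous model and PBS mice a PBS model, both named as controls, and what was injected under the skin and where PBS was given are not stated in the labels. Each group had 2 arrays, given in the design as n = 2, and the titles give each array a number of its own. The labels do not say that these numbers are mice, so p-values measure only the spread between these arrays, which may be technical. For SC the Xist values given below differ too far for repeats of 1 RNA. The mice of all 3 groups share the immunodeficiency, and the N-inv model rests on a single cell line.

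Mt1 and Mt2 are made in most tissues. In the central nervous system they are found mainly in astrocytes, and their transcription is raised by zinc through the factor MTF1, by glucocorticoids, by cytokines that signal through STAT3 and by oxidative stress. Mt3 is largely restricted to the nervous system, where neurons and astrocytes express it, and it was first described as a growth inhibitory factor that is depleted in Alzheimer's disease; it responds little to metals. Mt4 belongs to stratified epithelia.

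The 3 genes lie next to each other on chromosome 8, and their promoters are printed because Mt1 and Mt2 had their highest value in the same array while Mt3 did not. The windows are those of RefSeq on GRCm38.p6, each 300 bases, from 250 before to 50 after the annotated start, all on the + strand. They are chr8:94178839-94179138 for Mt1, chr8:94172368-94172667 for Mt2 and chr8:94152357-94152656 for Mt3. Capitals mark the core of the metal response element, the site of MTF1, searched on both strands as TGCACNC or TGCGCNC, so that a minus-strand match is printed as its reverse complement.
Mt1: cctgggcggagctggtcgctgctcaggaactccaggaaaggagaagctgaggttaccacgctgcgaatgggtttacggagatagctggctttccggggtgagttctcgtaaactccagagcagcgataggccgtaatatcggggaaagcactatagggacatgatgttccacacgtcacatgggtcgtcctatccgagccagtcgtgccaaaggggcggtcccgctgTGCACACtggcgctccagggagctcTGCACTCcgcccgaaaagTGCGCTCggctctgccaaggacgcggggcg
Mt2: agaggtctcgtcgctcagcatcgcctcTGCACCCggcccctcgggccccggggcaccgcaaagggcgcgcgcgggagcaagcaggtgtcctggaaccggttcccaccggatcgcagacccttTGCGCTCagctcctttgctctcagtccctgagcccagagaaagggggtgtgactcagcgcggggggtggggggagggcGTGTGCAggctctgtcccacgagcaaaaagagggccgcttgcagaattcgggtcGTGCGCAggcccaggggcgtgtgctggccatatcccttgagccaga
Mt3: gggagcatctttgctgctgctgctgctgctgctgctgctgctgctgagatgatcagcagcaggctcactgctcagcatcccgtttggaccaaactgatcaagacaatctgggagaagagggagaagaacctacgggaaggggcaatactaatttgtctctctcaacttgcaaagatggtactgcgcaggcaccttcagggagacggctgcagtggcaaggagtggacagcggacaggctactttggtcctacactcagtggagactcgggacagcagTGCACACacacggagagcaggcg
Mt1 held 3 matches, Mt2 held 4 and Mt3 held 1. Of 32841 promoter windows of the same length, 25.7% held at least 1 match, 1.97% at least 3 and 0.518% at least 4. In Mt2 the matches began at positions 28, 123, 201 and 255 of the window, the last pair on the minus strand, and in Mt1 at positions 228, 253 and 271. The full glucocorticoid response element, a palindrome with a spacer of any bases, was not in these windows and was in 0.00913% of all. The STAT site TTCNNNGAA was not in them either and was in 8.3% of all, and the antioxidant response element core TGACNNNGC, found in 12.4% of all, was in the Mt2 window alone among these genes. The Mt3 window also held an unbroken run of 11 CTG triplets, while the longest run was 1 in Mt1 and in Mt2. The TATA box TATAAA, found in 13.6% of all, was in none of the Mt1, Mt2 and Mt3 windows. Some metal element matches began after the annotated start, at positions 253 and 271 in Mt1, 255 in Mt2 and 278 in Mt3. Whether the annotated start is the one used in cord was not tested, and sites outside these windows were not searched. A match is a description of letters and says nothing about binding.

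All levels below are probe set intensities on a linear scale with each array scaled to a common median of 255.8. Differences are on the scale of log2(intensity + 25.6), from 1 limma fit over the 6 arrays and 27022 probe sets, with standard errors (SE) and 95% confidence intervals. P-values were adjusted over all probe sets by the Benjamini-Hochberg method, with a threshold of 0.05. Probes of different genes bind unequally, so no gene's level is set against another's.

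The SC arrays stood apart before any gene was compared. Their correlation with each other was 0.965, against 0.984 between the N-inv arrays and 0.983 between the PBS arrays. Xist, which is expressed in female cells, measured 13042 in SC replicate 2, whereas no other array exceeded 228.1, although all mice are labelled male. Eif2s3y, a Y-linked gene, was present in every array, at 2374 and 2647 (N-inv), 1342 and 3147 (SC), and 2575 and 2365 (PBS). Actb control probes near the transcript's tail were divided by those near its start. This quotient is a rough gauge of RNA integrity, and the part of the two-cycle labelling in it cannot be told apart here. It was 3.32 and 3.42 (N-inv), 3.81 and 4.70 (SC) and 3.05 and 3.57 (PBS). The same quotient for Gapdh was 3.12 and 3.38 (N-inv), 3.52 and 3.38 (SC) and 2.82 and 3.02 (PBS), so that SC replicate 2 was not the highest by it. Of the spinal cord list 10 of 11 genes passed the filter, as did 12614 of 18193 genes in all, so the count says little of the tissue. Among them was Hoxc10, a positional gene of lumbar cord, at 5510 and 6107 (N-inv), 4500 and 6414 (SC) and 4545 and 5669 (PBS). Slc5a7, the choline transporter of motor neurons, was below the filter. The differences of Mt1 and Mt2 between SC and each other group are given with and without SC replicate 2, as are those of some gene lists. Other results that rest on SC are given with all arrays only and may depend on that array.

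**Figure D1:**
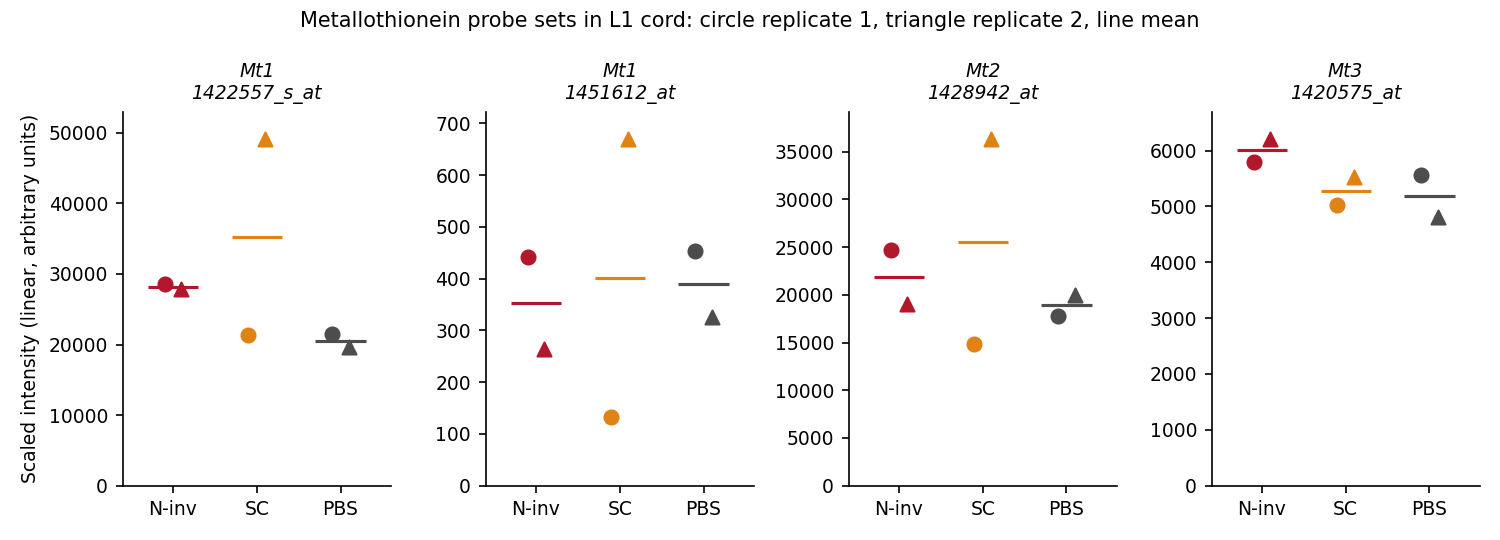
Scaled intensity (linear, from 0) of the 4 metallothionein probe sets in N-inv, SC and PBS, with a circle for replicate 1, a triangle for replicate 2 and a line for the mean of 2 arrays. SC replicate 2 is the highest array for both Mt1 probe sets and for Mt2, at 49098, 669.4 and 36316, whereas the 6 Mt3 values lie between 4810 and 6204.

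In the cord of mice with cancer cells injected into the nerve, Mt1 lay a little above the PBS level in both arrays, by a size that did not pass the test. Mt1 measured 28545 and 27809 in N-inv against 21459 and 19675 (PBS) by the brighter of its probe sets. The N-inv arrays lay close together and both were above both PBS arrays. The means were 28177 ± 520.3 (N-inv) and 20567 ± 1262 (PBS), with the SD of 2 arrays each. On the log2 scale they differed by 0.45 ± 0.36 (SE), a fold of 1.37 with an interval from 0.76 to 2.49 (limma, adjusted p = 1). N-inv arrays lay wholly above PBS arrays for 21.6% of all probe sets tested, so this separation is common in these data.

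Mt2 measured 24704 and 19050 in N-inv against 17816 and 20006 (PBS). The groups overlapped, since N-inv replicate 2 was below PBS replicate 2. The log2 difference was 0.20 ± 0.40 (SE), a fold of 1.15 with an interval from 0.60 to 2.22 (limma, adjusted p = 1).

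Mt3 measured 5802 and 6204 in N-inv against 5563 and 4810 (PBS). Both N-inv arrays were above both PBS arrays, as for 21.6% of all probe sets tested. However, N-inv replicate 1 exceeded PBS replicate 1 by less than the PBS arrays differed from each other. The log2 difference was 0.21 ± 0.17 (SE), a fold of 1.16 with an interval from 0.88 to 1.53 (limma, adjusted p = 1).

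None of the 3 genes therefore passed in N-inv against PBS, and neither did any other probe set. In limma 0 of 27022 were called (0%), and 1097 (4.06%) had an unadjusted p under 0.05, of all tested 2.28% higher and 1.78% lower in N-inv, the metallothioneins not among them. The spread used for Mt1 in this comparison came largely from the SC pair. With N-inv and PBS alone in the fit, its log2 difference of 0.45 had an SE of 0.12 and an interval from 0.13 to 0.78, with an unadjusted p of 0.0148 in limma and an adjusted p of 0.657. For Mt2 and Mt3 that fit gave intervals from -0.25 to 0.65 and from -0.14 to 0.57.

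The second Mt1 probe set was far dimmer and did not follow the first. It measured 441.7 and 264.6 (N-inv), 132.5 and 669.4 (SC) and 453.0 and 325.3 (PBS). Its log2 difference between N-inv and PBS was -0.15 ± 0.64 (SE), so its interval from -1.68 to 1.38 holds both the brighter probe set's value and its opposite. The brighter one carries the suffix by which the manufacturer marks probes shared by several transcripts, and whether it also takes up Mt2 RNA was not tested. Over the 6 arrays the probe sets correlated at r = 0.63, and at 0.23 over the 5 arrays without SC replicate 2.

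In the subcutaneous model, the SC arrays disagreed about Mt1 and Mt2. Mt1 measured 21406 in SC replicate 1 and 49098 in SC replicate 2, against 21459 and 19675 (PBS). The first SC array lay within the PBS values and the second was 2.29 times the first. The log2 difference was 0.66 ± 0.36 (SE), with an interval from -0.20 to 1.52 (limma, adjusted p = 0.723). Without SC replicate 2 it was 0.06, with an interval from -0.33 to 0.45, and without SC replicate 1 it was 1.26, with an interval from 0.86 to 1.65 and an adjusted p of 0.125 in limma. In those fits the single SC array is assumed to vary like the arrays of the other groups.

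Mt2 measured 14849 in SC replicate 1 and 36316 in SC replicate 2, against 17816 and 20006 (PBS). SC replicate 1 was the lowest of all 6 arrays and SC replicate 2 the highest, a ratio of 2.45 between them. The log2 difference was 0.30 ± 0.40 (SE), with an interval from -0.65 to 1.25 (limma, adjusted p = 0.904). It was -0.35 without SC replicate 2 and 0.94 without SC replicate 1, so its direction depends on which SC array is read.

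Mt3 measured 5023 and 5536 in SC against 5563 and 4810 (PBS). Both SC values lay inside the range of the PBS pair, and the log2 difference was 0.03 ± 0.17 (SE), with an interval from -0.37 to 0.42 (limma, adjusted p = 0.988). Across all probe sets limma called 0 in SC against PBS (0%), with 2141 (7.92%) at an unadjusted p under 0.05, of all tested 2.76% higher and 5.17% lower in SC.

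**Figure D2:**
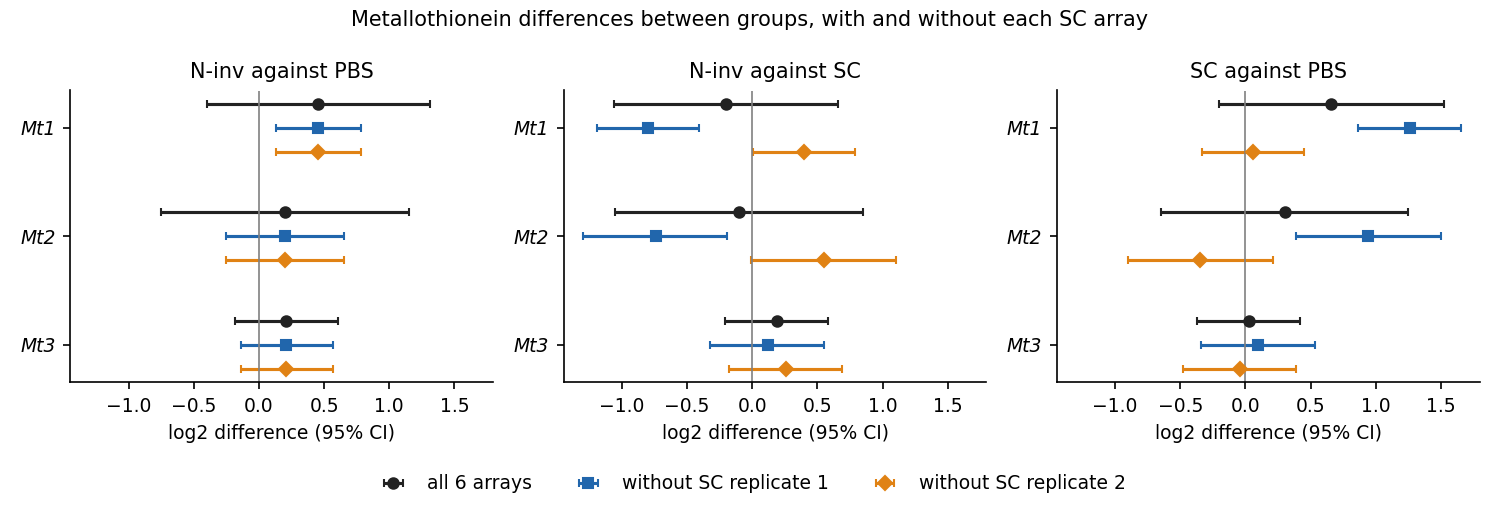
Log2 difference of each gene (points) with its 95% confidence interval (bars) in 3 panels (N-inv over PBS, N-inv over SC, SC over PBS), with all 6 arrays, without SC replicate 1 and without SC replicate 2. For Mt1 and Mt2 the estimates that involve SC move to opposite sides of 0 or close to it when an SC array is left out, for example 1.26 and 0.06 for Mt1 in SC against PBS, while those of Mt3 stay between -0.04 and 0.26.

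Between N-inv and SC the result for Mt1 and Mt2 likewise turned on the SC pair. The N-inv values of Mt1, 28545 and 27809, fell between the SC values of 21406 and 49098, and the log2 difference was -0.20 ± 0.36 (SE), with an interval from -1.06 to 0.66 (limma, adjusted p = 0.917). The N-inv values of Mt2, 24704 and 19050, also fell between those of SC, 14849 and 36316, with a log2 difference of -0.10 ± 0.40 (SE) and an interval from -1.05 to 0.85 (limma, adjusted p = 0.97). Without SC replicate 2 the differences were 0.40 and 0.55, beside a median of 0.15 over all 12614 genes tested. Without SC replicate 1 they were -0.80 and -0.74.

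Mt3 measured 5802 and 6204 in N-inv against 5023 and 5536 (SC), with both N-inv arrays above both SC arrays. Its log2 difference was 0.19 ± 0.17 (SE), with an interval from -0.21 to 0.58 (limma, adjusted p = 0.796), and N-inv lay wholly above SC for 23.6% of probe sets. In limma 0 probe sets were called (0%), and 2417 (8.94%) had an unadjusted p under 0.05, of all tested 5.96% higher and 2.99% lower in N-inv.

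Against the mean of both control groups, the log2 differences of N-inv were 0.13 ± 0.31 for Mt1, 0.05 ± 0.34 for Mt2 and 0.20 ± 0.14 for Mt3 (SE). Mt3 was the only one whose N-inv arrays, at 5802 and 6204, lay above all 4 control arrays, which measured between 4810 and 5563. This held for 9.07% of all probe sets, and the reverse, N-inv below all 4, for 4.64%. In limma the adjusted p of the 3 genes was 0.947 or higher, 0 probe sets were called (0%), and 1560 (5.77%) had an unadjusted p under 0.05, of all tested 3.46% higher and 2.31% lower in N-inv. These comparisons share arrays, so agreement between them is not independent.

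The step between the SC arrays was large for Mt1 and Mt2 and small for Mt3. On the log2 scale SC replicate 2 exceeded SC replicate 1 by 1.20 for Mt1, by 2.14 for its dimmer probe set, by 1.29 for Mt2 and by 0.14 for Mt3. Of all probe sets tested, 1.62% had a step at least as high as that of Mt1 and 1.27% one at least as high as that of Mt2, whereas for Mt3 the share was 50.7%. The median step over all probe sets was 0.15. Within N-inv, replicate 2 differed from replicate 1 by -0.04 for Mt1, -0.37 for Mt2 and 0.10 for Mt3, and within PBS by -0.13, 0.17 and -0.21 in the same order.

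**Figure D3:**
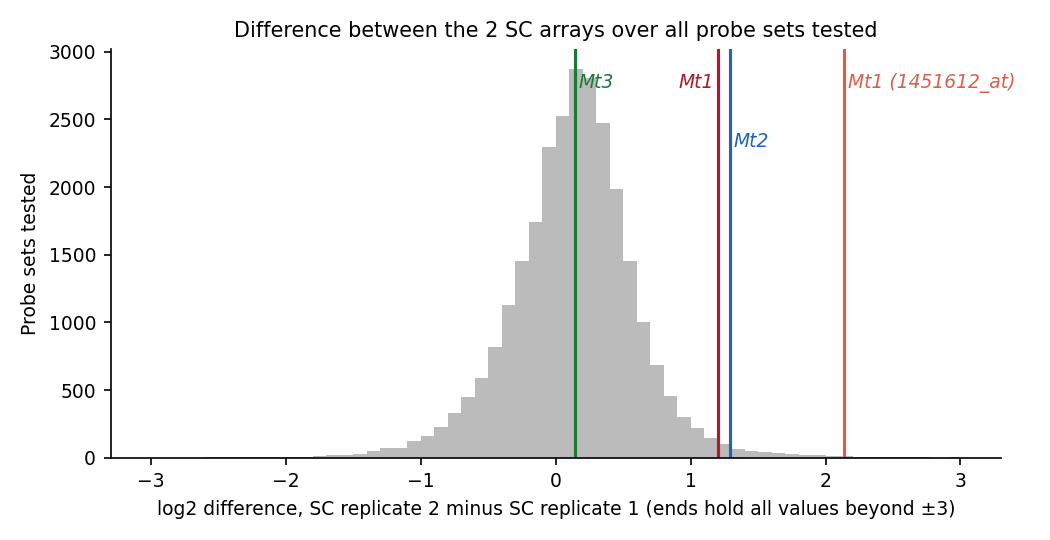
Number of probe sets tested (y axis) by the log2 difference between SC replicate 2 and SC replicate 1 (x axis), with lines at the metallothionein probe sets. Mt1 at 1.20 and Mt2 at 1.29 lie in the upper tail, the dimmer Mt1 probe set lies at 2.14, and Mt3 at 0.14 lies next to the median of 0.15.

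Across the 6 arrays Mt1 and Mt2 correlated at r = 0.89, Mt1 and Mt3 at 0.45 and Mt2 and Mt3 at 0.25. Without SC replicate 2 the values over 5 arrays were 0.57, 0.88 and 0.38, so the closeness of Mt1 to Mt2 rests in large part on that array. In the levels of Mt1, SC replicate 2 was highest, the N-inv arrays followed together, and the remaining SC array and both PBS arrays did not differ beyond the spread of PBS. In Mt2 only SC replicate 2 was clearly apart, and in Mt3 no array was.

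The genes around the cluster did not show the step of Mt1 and Mt2. In the chromosomal order of RefSeq on GRCm38.p6, the nearest protein-coding genes are Nudt21, Ogfod1 and Bbs2 on one side and Nup93, Slc12a3 and Herpud1 on the other, a set fixed by position after the values had been seen. Bbs2, a protein of the ciliary base, measured 1121 and 994.6 (N-inv), 849.9 and 1231 (SC) and 953.0 and 988.5 (PBS). Nup93, a nuclear pore subunit next to Mt1, measured 1843 and 1837 (N-inv), 1455 and 1959 (SC) and 1722 and 1748 (PBS). Herpud1, a protein of the endoplasmic reticulum stress response, measured 3148 and 3265 (N-inv), 2450 and 3846 (SC) and 3175 and 3912 (PBS). SC replicate 2 was also above SC replicate 1 in these 3 genes, but by less than for Mt1 and Mt2. Ogfod1, a ribosomal hydroxylase, measured 3144 and 3334 (N-inv), 2849 and 3751 (SC), and 2700 and 3418 (PBS), and Nudt21, a subunit of the cleavage factor for polyadenylation, 2250 and 2322, 2700 and 2570, and 2474 and 2549 in the same groups. Slc12a3 was below the filter.

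**Figure D4:**
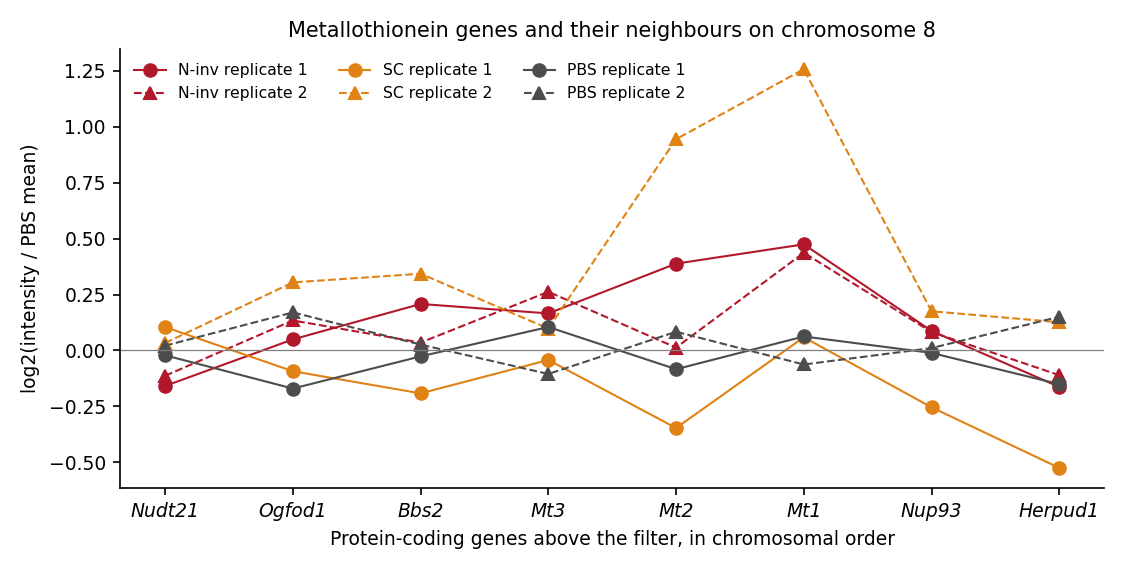
Log2 ratio of each array to the mean of the PBS log2 values (y axis) for the protein-coding genes above the filter around the metallothionein cluster, in chromosomal order (x axis). Mt1 and Mt2 peak in SC replicate 2, at 1.26 and 0.94, while Mt3 is at 0.10 in that array.

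Zinc transporters, whose activity sets the zinc available to metallothioneins, showed no called change. Of 14 importers of the Slc39a family 11 were tested, and all 11 were higher in N-inv than in PBS, but by a median of only 0.02 on the log2 scale, when 59.9% of all genes were higher with a median of 0.04. Slc39a1 measured 2021 and 2126 (N-inv), 1298 and 1662 (SC) and 1674 and 1611 (PBS), with log2 differences of 0.33 ± 0.18 in N-inv against PBS and 0.49 ± 0.18 in N-inv against SC (SE, limma adjusted p = 1 and 0.513). Slc39a14, an importer induced by interleukin 6, measured 2307 and 2425 (N-inv), 1670 and 2996 (SC) and 1571 and 2117 (PBS). Slc39a12, a zinc importer of the brain, measured 11043 and 10842 (N-inv), 7911 and 11703 (SC) and 10434 and 11131 (PBS). In SC against PBS 4 of the 11 were higher, with a median of -0.12, when 46.8% of all genes were (median -0.02). Without SC replicate 2 it was 1 of 11, with a median of -0.18, when 33.3% of all genes were (median -0.11).

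Of 10 zinc exporters of the Slc30a family 8 were tested. In N-inv 5 were higher than in PBS (median 0.05), when 59.9% of all genes were. In SC 4 were higher than in PBS (median 0.02), when 46.8% of all genes were. Without SC replicate 2 that median was -0.15, beside -0.11 over all genes. Slc30a1 is the exporter of the plasma membrane and, like Mt1, a target of MTF1. It measured 3595 and 3302 (N-inv), 2560 and 4320 (SC) and 3775 and 4067 (PBS). Its N-inv arrays lay below both PBS arrays, the reverse of Mt1 and a separation found for 14.6% of all probe sets, with a log2 difference of -0.18 ± 0.26 (SE, limma adjusted p = 1). SC replicate 2 was 1.69 times SC replicate 1, and it was the highest array, as it was for Mt1.

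Genes that handle copper, which metallothioneins also bind, and genes that handle iron were set beside those of zinc. Of 13 copper genes 5 were higher in N-inv than in PBS (median -0.14) and 3 in SC than in PBS (median -0.19), and 0 were called. The shares of all genes were 59.9% in N-inv and 46.8% in SC. Ccs, the copper chaperone of superoxide dismutase, measured 1366 and 1281 (N-inv), 1198 and 1111 (SC) and 1573 and 1668 (PBS), lowest in SC and highest in PBS without overlap. SC arrays lay wholly below PBS arrays for 20.2% of all probe sets tested. Slc31a2, a copper transporter, measured 586.2 and 520.9 in N-inv against 709.8 and 856.0 (PBS). Of 10 iron genes tested 6 were higher in N-inv than in PBS (median 0.02), beside the same 59.9% of all genes. In SC 4 were higher than in PBS (median -0.09), beside 46.8% of all genes. Aco1, an iron-sensing RNA-binding protein, measured 3659 and 3443 (N-inv), 2604 and 2919 (SC) and 3931 and 3662 (PBS). The iron-siderophore binding protein Lcn2 is on the iron, STAT3, reactive astrocyte and neutrophil lists, and its values are given with STAT3 targets.

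The factors known to act on metallothionein promoters differed little. Of 9 such genes 4 were higher in N-inv than in PBS (median -0.02) and 5 in SC than in PBS (median 0.02), with 0 called. Among all genes 59.9% were higher in N-inv and 46.8% in SC. Without SC replicate 2 the median of these factors in SC against PBS was -0.10, beside -0.11 over all genes. Mtf1 measured 1041 and 1233 (N-inv), 1030 and 1119 (SC) and 1031 and 1179 (PBS), so the groups overlapped throughout. Nr3c1, the glucocorticoid receptor, measured 4096 in both N-inv arrays, 4063 and 3253 (SC) and 4353 and 4847 (PBS). Stat3 measured 2520 and 2681 (N-inv), 2360 and 2924 (SC) and 2273 and 2060 (PBS), with every N-inv and SC array above both PBS arrays (SC wholly above PBS for 14.2% of all probe sets) and log2 differences of 0.26 ± 0.18 and 0.28 ± 0.18 (SE, limma adjusted p = 1 and 0.763). Lrp1, a receptor that takes up extracellular metallothionein, measured 7993 and 7812 (N-inv), 6903 and 8354 (SC) and 6559 and 6763 (PBS). Lrp2, the other such receptor, was below the filter.

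Genes induced by glucocorticoids shared the high value of SC replicate 2. All 22 of those tested had their highest value in that array, as did Mt1 and Mt2, when 34.4% of all genes did. The median of the list in that array was 1.06 above the PBS mean on the log2 scale, and it was -0.25 in SC replicate 1 and -0.02 and -0.32 in the N-inv arrays. The likeness was not particular to this list. Genes of the interleukin 6 and STAT3 response, described below, also had their highest median in SC replicate 2, at 0.69. Their median was 0.14 in SC replicate 1 and 0.38 and 0.28 in the N-inv arrays. Of the 15 tested, 9 were highest in SC replicate 2. That count does not mark the list out, since 7 of 11 neuronal genes and 5 of 8 zinc exporters were highest there too. Among copper genes it was only 2 of 13. Cebpd is on both the glucocorticoid and the STAT3 lists. Fkbp5, an immunophilin of the receptor complex, measured 1312 and 1318 (N-inv), 1476 and 5138 (SC) and 1209 and 1238 (PBS). Fam107a measured 13380 and 15867 (N-inv), 16158 and 34276 (SC) and 12236 and 13682 (PBS), and Sult1a1, a sulfotransferase, 901.6 and 975.0, 1303 and 3200, and 1009 and 1065 in the same groups. Tsc22d3, which encodes the leucine zipper protein GILZ, measured 4446 and 3352 (N-inv), 3472 and 6721 (SC) and 5445 and 5656 (PBS), and the kinase Sgk1 measured 17648 and 5959, 14695 and 43799, and 23878 and 27196.

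In N-inv against PBS 6 of the 22 were higher, with a median of -0.18. Mt1 was at 0.45 ± 0.36 and Mt2 at 0.20 ± 0.40 (SE) in that comparison, and no difference between the list and these genes was tested. In SC against PBS 18 of 22 were higher (median 0.42), and without SC replicate 2 it was 7 of 22 (median -0.25). Of all genes 46.8% were higher (median -0.02) with all arrays and 33.3% (median -0.11) without that one, so the count without SC replicate 2 is near the share of all genes. No gene of the list was called in limma, and the list and the metallothioneins were chosen with earlier results of these data known. SC replicate 2 is also the array with the high Xist value and the highest Actb quotient, though not the highest Gapdh quotient, and the part of these in its metallothionein level was not tested.

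Of the genes of the interleukin 6 and STAT3 response, all 15 tested were above PBS in N-inv, with a median of 0.31, when 59.9% of all genes were. In SC 13 were above PBS, with a median of 0.45, when 46.8% of all genes were, and 11 with a median of 0.14 without SC replicate 2, when 33.3% of all genes were. In limma 0 were called and 5 of the 15 had an unadjusted p under 0.05 in each comparison, beside 4.06% of all probe sets in N-inv against PBS and 7.92% in SC against PBS. Socs3, the feedback inhibitor of the pathway, measured 986.6 and 732.5 (N-inv), 568.0 and 990.9 (SC) and 333.9 and 347.0 (PBS), with log2 differences of 1.26 ± 0.28 (N-inv) and 1.09 ± 0.28 in SC against PBS (SE, limma adjusted p = 1 and 0.507). Osmr, the oncostatin M receptor, measured 1622 and 1522 (N-inv), 825.0 and 1331 (SC) and 780.6 and 849.6 (PBS).

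Lcn2 and Serpina3n encode secreted proteins and are STAT3 targets. Lcn2 measured 795.9 and 853.1 (N-inv), 734.9 and 2526 (SC) and 217.3 and 135.0 (PBS), with log2 differences of 2.10 ± 0.53 (N-inv) and 2.82 ± 0.53 in SC against PBS (SE, limma adjusted p = 1 and 0.5). Serpina3n, a protease inhibitor of reactive astrocytes, measured 3822 and 3369 (N-inv), 1249 and 2743 (SC) and 1286 and 1393 (PBS). In SC replicate 1 the list was mixed. Over the PBS mean Lcn2 was at 1.94 and Socs3 at 0.70 in that array, while Osmr at 0.02 and Serpina3n at -0.10 were near the PBS level, as Mt1 was at 0.06. The STAT3 and reactive astrocyte lists share Lcn2, Serpina3n, Osmr and Timp1, so their counts are not independent, and Lcn2 is on the neutrophil list too.

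Targets of NRF2, the factor of the oxidative stress response, showed no common direction. Of 12 tested 7 were higher in N-inv than in PBS (median 0.03) and 6 in SC than in PBS (median -0.04). Across all genes 59.9% were higher in N-inv and 46.8% in SC. Srxn1, sulfiredoxin, measured 4135 and 3894 (N-inv), 3490 and 3433 (SC) and 3155 and 2969 (PBS), with a log2 difference of 0.39 ± 0.15 in N-inv against PBS (SE, limma adjusted p = 1). Hmox1, heme oxygenase, measured 161.6 and 99.9 (N-inv), 221.3 and 148.8 (SC) and 191.2 and 219.9 (PBS), so that both N-inv arrays lay below PBS. This separation held for 14.6% of all probe sets tested.

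**Figure D5:**
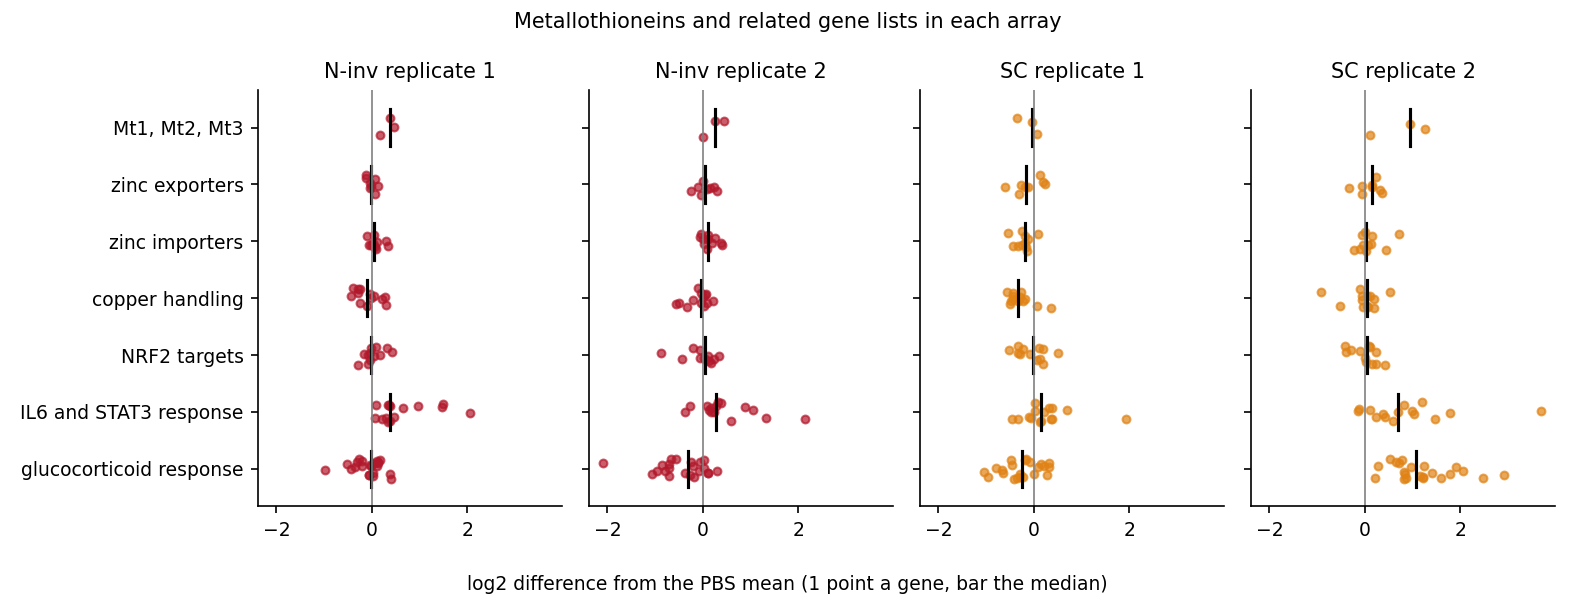
Log2 difference of each gene from the PBS mean (x axis, 1 point a gene, bar at the median) for the metallothioneins and 6 gene lists (rows) in the N-inv and SC arrays (panels). In SC replicate 2 Mt1 and Mt2 are at 1.26 and 0.94 and Mt3 is at 0.10, so the metallothionein median is the value of Mt2. The glucocorticoid response median is 1.06 in that array and the interleukin 6 and STAT3 response median 0.69. In SC replicate 1 the metallothionein median of -0.04 is the value of Mt3, and the medians of those lists are -0.25 and 0.14.

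Astrocytes are the main source of Mt1 and Mt2 in the cord, and their markers are set beside those genes. Gfap, their intermediate filament, measured 20479 and 19174 (N-inv), 4632 and 15348 (SC) and 6653 and 7913 (PBS). Its N-inv arrays were above all others, as for 9.07% of all probe sets tested and unlike those of Mt1. In limma the adjusted p of Gfap in N-inv against the mean of both control groups was 0.835. Its SC arrays were 3.31 times apart, with SC replicate 2 the higher. Of 16 homeostatic astrocyte genes 13 were higher in N-inv than in PBS (median 0.11), when 59.9% of all genes were. The list's median was -0.26 in SC replicate 1 and 0.11 in SC replicate 2, beside -0.11 and 0.08 over all genes. Of 19 reactive astrocyte genes 15 were higher in N-inv than in PBS (median 0.28), against the same 59.9% of all genes. Over the PBS mean the median of the reactive list was 0.36 and 0.23 in the N-inv arrays, -0.03 in SC replicate 1 and 0.52 in SC replicate 2, where Mt1 was at 0.47 and 0.44, at 0.06 and at 1.26. The part of astrocytes in the Mt1 values was not tested. In bulk tissue fewer astrocytes and less RNA per astrocyte cannot be told apart.

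Markers of other cells also differed between groups and arrays. All 12 microglial genes tested were higher in N-inv than in PBS, with a median of 0.75, when 59.9% of all genes were. The 14 on the array summed to 54471 and 48200 (N-inv), 28733 and 37390 (SC), and 33067 and 33507 (PBS). Of 9 oligodendrocyte genes 2 were higher in SC than in PBS, with a median of -0.57, when 46.8% of all genes were (median -0.02). The summed level of 8 neutrophil genes was 1468 and 1528 (N-inv), 3128 and 6951 (SC) and 3054 and 957.2 (PBS). The 11 endothelial markers on the array summed to 24767 and 24647 (N-inv), 19265 and 29461 (SC) and 23243 and 24850 (PBS), and the 9 of meningeal fibroblasts to 26881 and 29106, 29668 and 22857, and 23849 and 28824. Of the skeletal muscle list 2 of 8 passed the filter and of the adipocyte list 0 of 5. The part of these cells in the metallothionein values was not tested.

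The genes whose log2 values were most like each metallothionein over the 6 arrays, by Pearson's r among 12611 genes, are given as a description. The arrays share processing and SC replicate 2 weighs heavily. For Mt1 they were Nde1, a centrosomal protein (r = 0.994), the proteasome subunit Psmc3 (0.993), the membrane protein Itm2b (0.991), the adaptor Tollip (0.991) and the elongation factor Supt5 (0.990). Nde1 measured 1285 and 1326 (N-inv), 1084 and 2034 (SC) and 1124 and 1039 (PBS). For Mt2 they were the RNA-binding protein Hnrnpdl (0.996), the nuclear protein Csrnp1 (0.996), the ubiquitin-conjugating enzyme Ube2n (0.995), Grsf1 (0.991) and the anchoring protein Akap6 (0.991). Csrnp1 measured 443.6 and 316.6 (N-inv), 252.0 and 716.7 (SC) and 284.5 and 342.0 (PBS).

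For Mt3 the most alike were Snapc5 (0.985), Mcur1, a regulator of mitochondrial calcium uptake (0.970), the Mediator subunit Med10 (0.970), Abtb1 (0.968) and the cathepsin Ctsh (0.967). Without SC replicate 2 the values of these 15 genes lay between 0.964 and 0.987 over 5 arrays. With so few arrays many genes come close: 3.07% of genes exceeded r = 0.9 with Mt1, 4.75% with Mt2 and 0.603% with Mt3.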

How the data were processed

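Expression was measured in 6 arrays, 2 each for N-inv, SC and PBS, from biotin-labelled cRNA prepared from 100 ng RNA with a two-cycle kit, per the labels' protocols. Each array has 1 column of deposited intensities on a linear scale, given per probe set. The mean of each deposited column after removing 2% at each end was 1000, so the authors' intensities had been scaled per array; how the probes were summarised was not given in the sources used here. Of 45101 probe sets, 64 control probe sets were left out, and of the other 45037 the platform annotation gave 1 symbol for 34945, several for 932 and none for 9160. No probe set with several symbols held a metallothionein.

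Each array was scaled to the mean of the array medians (255.8), log2(intensity + 25.6) was taken, the pseudocount being that median divided by 10, and probe sets with a mean above the 40th percentile (intensity 147.5) were kept, 27022 for 12614 genes. Because of the pseudocount, folds of dim genes come out too small. Where a gene had several probe sets, the brightest stood for it. The group differences come from lmFit and eBayes of limma 3.58.1 (R 4.3.3), two-sided, with 3 residual and 3.72 prior degrees of freedom. Arrays have no depth, and their number limits the precision. The fit was tested on simulated data with known changes at 27022 probe sets. For N-inv against PBS it called 31 of 67 with a log2 change of 1, all 67 with 2 and all 66 with 3. It also called 14 unchanged ones. These counts hold for the simulated data only. In the arrays themselves no probe set was called for N-inv against PBS, although the log2 difference of Lcn2 was above 2. A difference of that size is therefore not always called here.

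The members and gene lists were chosen with earlier results of these data known. Named beside the members were up to 4 genes per list with the smallest unadjusted p in N-inv or SC against PBS, a few genes always reported (Gfap, Fkbp5, Sgk1, Tsc22d3, Mtf1, Slc30a1 and Slc39a12), and 5 genes most like each member. Markers are described by sums and by medians.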

Additional observations from a re-analysis of the deposited data

How the results depend on the processing

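Of 181 alternative values of the 3 genes, 168 kept their direction and none passed the adjusted threshold, with a lowest adjusted p of 0.125 in limma. The dimmer Mt1 probe set reversed Mt1 to -0.15 in N-inv against PBS, 0.15 in N-inv against SC, -0.31 in SC against PBS and -0.0012 in N-inv against the mean of both control groups. The other reversals came from leaving out 1 array, which gave -0.80 to 0.40 (Mt1) and -0.74 to 0.55 (Mt2) in N-inv against SC, -0.35 to 0.94 (Mt2) and -0.08 to 0.13 (Mt3) in SC against PBS, and -0.17 to 0.43 (Mt1) and -0.27 to 0.37 (Mt2) in N-inv against the mean. The cause was not tested. Against 0 probe sets called, leaving out 1 array gave 0 to 1 in N-inv against PBS, 0 to 1 in N-inv against SC, 0 to 9 in SC against PBS (9 without SC replicate 1) and 0 to 1 in N-inv against the mean. An intensity trend gave 1, 2 and 1 in N-inv against PBS, SC and the mean, the groups compared alone gave 1 in N-inv against PBS, and a pseudocount of the median divided by 2 gave 1 in N-inv against the mean. Same-numbered arrays did not deviate together (correlations of -0.03 to 0.04), so the values gave no sign of pairing. Whether same-numbered arrays were handled together cannot be told from these values. With the replicate block Mt1 was 0.45, -0.20, 0.66 and 0.13 in the 4 comparisons and 0 probe sets were called. With 2 arrays a group the intervals are wide, and a p above the threshold does not show equal levels.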
